A study of Mus musculus with 12 samples.

Results

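The 36 genes described here act in the interferon response and in the presentation of antigens by MHC class I. They were chosen by name, and each of the 36 symbols matched 1 of the 46983 Ensembl genes in the expression table. RNA was sequenced from C2C12, a mouse line of skeletal myoblasts that fuse into myotubes when they differentiate, in 4 groups of 3 libraries each. WT_0d and WT_5d were wild-type C2C12 cells, the PB-IP vector group of the study, on 0d and 5d of myogenic culture. PPARγ/+_0d and PPARγ/+_5d were C2C12 cells with the coding sequence of PPARγ, a nuclear receptor that drives adipocyte formation, in the same PiggyBac vector, on the same days. The PPARγ/+ cells had been transfected together with the transposase and selected with puromycin, and the promoter of the vector and the number of clones behind the libraries are not given in the sources used here. The series calls them inducible, and no inducing agent is named. All cells grew in a medium with fetal bovine serum and leukaemia inhibitory factor, and neither the labels nor the methods name an interferon, a virus or another inflammatory agent. Levels are given as FPKM, the fragments on a gene scaled to the length of its transcript and to the mapped fragments of the library, so that genes can be compared per length.

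Interferons are secreted by cells that sense viral nucleic acid. Type I interferons bind the receptor IFNAR and interferon gamma binds the receptor IFNGR, and both signal through JAK kinases to STAT proteins. A complex with STAT2 and IRF9 binds the interferon-stimulated response element (ISRE), STAT dimers bind the gamma-activated site (GAS), and the genes so controlled encode antiviral effectors, sensors and the machinery that cuts, carries and presents peptides on MHC class I. Skeletal myoblasts are known to carry interferon receptors and low levels of MHC class I.

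The ISRE is what the classical members of this response share at the DNA level, so its matches are shown first. The ISRE was searched as GAAA, any 2 bases and GAAA again, and the GAS as TTCNNNGAA, on both strands, in RefSeq promoters of GRCm38.p6 that run from 250 bases before to 50 bases after each gene start. Promoters were held for 29 of the 36 genes, and for Usp18, Mx1, Mx2, Dhx58, Parp9, Parp14 and Tap2 none was used here. The ISRE letters occurred in 14 of these 29 genes (48.3%), against 3.99% of the 27025 genes with a promoter in the table and 3.44% of its 32851 promoters. The GAS letters occurred in 8 of 29 (27.6%), against 9.55% of genes and 8.3% of promoters. Matches of both motifs overlapped in Bst2 and Ifitm3. The 15 windows below hold the ISRE matches of the 12 matching genes with the highest levels, each 5′ to 3′ on the strand that carries the GAAA repeats, with the matched letters in capitals.
B2m, chr2:122147538-122147567, plus strand: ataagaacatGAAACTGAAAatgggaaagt
Ifitm3, chr7:141010723-141010752, minus strand: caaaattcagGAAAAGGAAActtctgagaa
Ifitm3, chr7:141010706-141010735, minus strand: aaacttctgaGAAACCGAAActgccgcaga
Bst2, chr8:71537580-71537609, minus strand: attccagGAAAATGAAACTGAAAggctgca
Ifit3, chr19:34583363-34583392, minus strand: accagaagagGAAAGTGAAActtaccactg
Ifit3, chr19:34583397-34583426, minus strand: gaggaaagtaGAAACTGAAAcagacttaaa
Stat2, chr10:128270266-128270295, minus strand: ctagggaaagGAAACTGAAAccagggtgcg
Isg15, chr4:156200871-156200900, minus strand: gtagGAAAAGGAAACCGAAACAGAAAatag
Gbp2, chr3:142620594-142620623, minus strand: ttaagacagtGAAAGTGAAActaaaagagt
Ifit1, chr19:34640775-34640804, minus strand: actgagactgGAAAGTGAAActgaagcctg
Ifit1, chr19:34640794-34640823, minus strand: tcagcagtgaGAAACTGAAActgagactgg
Gbp7, chr3:142530273-142530302, minus strand: atggagaactGAAACTGAAActgcacacac
Gbp3, chr3:142559992-142560021, minus strand: gatctggGAAATAGAAACTGAAActgtgtc
Ifih1, chr2:62646206-62646233, minus strand: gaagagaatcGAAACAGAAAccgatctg
Oas1a, chr5:120907523-120907552, minus strand: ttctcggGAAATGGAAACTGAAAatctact

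Isg15 held 3 overlapping matches over 22 bases, and Bst2, Gbp3 and Oas1a each held 2 over 16 bases. Counted from the RefSeq start, the matches shown ran from base -222 in Stat2 to base 42 in Ifih1, and those of Ifitm3 and Ifih1 lay after the start. Rsad2 and Ddx60 also held matches and are not printed, because their levels were the lowest of the 14. A match of letters is a description of the sequence, and binding was not measured.

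The libraries held between 15537538 and 21991381 fragments on genes. Pparg was higher in PPARγ/+ than in WT cells in every library of each day, by 2.57 ± 0.24 (SE, log2) on 0d and by 3.85 ± 0.34 on 5d (limma, adjusted p = 0.0115 and 0.0379). The leukocyte gene Ptprc, which encodes CD45, was at most 0.00650 FPKM in any library, and the summed level of 9 markers of professional antigen-presenting cells was between 0.130 and 0.456 FPKM. Cd68, which encodes a lysosomal protein of macrophages and other cells, was the leukocyte marker with the highest level, between 1.999 and 5.09 FPKM, and 3 to 6 of the 8 leukocyte markers were at 0 in each library. The summed level of 8 myoblast and myotube markers on 5d was 4236, 3248 and 961.9 FPKM in WT replicates 1, 2 and 3, against 1038 to 1223 FPKM in the PPARγ/+ libraries. WT_0d replicate 2 held Myh3, an embryonic myosin heavy chain, at 7.72 FPKM, against 0.706 and 0.435 in replicates 1 and 3. The summed level of 6 adipocyte markers was 56.3, 65.4 and 142.7 FPKM in PPARγ/+_5d replicates 1, 2 and 3 and 14.8 to 19.0 FPKM in WT_5d. In WT_5d nearly all of this sum was Lpl and Cebpa. Adipoq was at most 0.0284 FPKM in WT_5d and 8.03 to 40.5 FPKM in PPARγ/+_5d, and Fabp4 was at most 0.0293 and 4.125 to 10.3 FPKM. In bulk samples, fewer cells of a type and less RNA per cell cannot be told apart.

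The members spanned levels from no fragment to those of the most abundant mRNAs. Their mean over the 12 libraries was at least 100 FPKM for 2 genes, between 10 and 100 for 3, between 1 and 10 for 16 and under 1 for 15. B2m, the light chain of every MHC class I molecule, was the highest, between 299.8 and 801.4 FPKM, and its mean ranked 46 among the 18023 genes tested. Ifitm3, a membrane protein that blocks viral entry, followed with 142.3 to 405.8 FPKM and rank 116. H2-K1 and H2-D1, classical class I heavy chains, lay between 34.0 and 83.9 and between 18.6 and 46.2 FPKM. Bst2, the tether that holds budding virus at the cell surface, lay between 14.2 and 28.6 FPKM. These 5 genes together held between 90.3% and 93.4% of the summed FPKM of the 36 genes in every library. Among the 15 members with a mean under 1 FPKM were Rsad2 (viperin) at 0.133 to 0.614, Oas1a at 0.0833 to 0.804, Ifi44 at 0.0282 to 0.215 and Mx2 at 0.0454 to 0.328 FPKM.

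**Figure D1:**
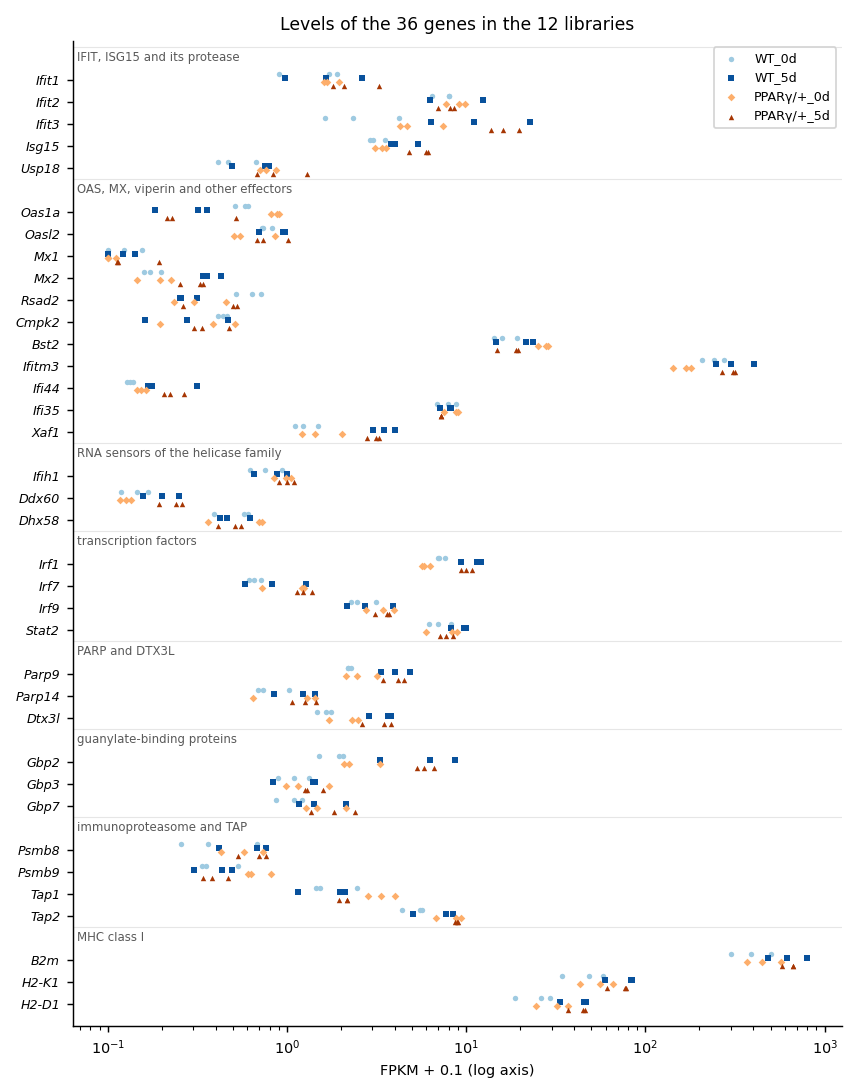
FPKM + 0.1 of the 36 genes on a log axis, 1 point for each of the 12 libraries, coloured by group and ordered by role. B2m and Ifitm3 stood above 100 FPKM in every library, and 15 of the 36 genes had a mean under 1 FPKM.

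Among the ligands, 18 of 21 interferon genes were at 0 in every WT_0d library, 16 in every WT_5d library, 18 in every PPARγ/+_0d library and 19 in every PPARγ/+_5d library. Ifnb1, the type I interferon first made by most cells, was at 0 in all 12 libraries. Ifng, which encodes interferon gamma, was the 1 ligand that entered the test. Its level was 0, 0.0329 and 0.0358 FPKM in WT_0d replicates 1 to 3, 0 in the 3 PPARγ/+_0d libraries, 0.390, 0.344 and 0.218 FPKM in WT_5d, and 0.120, 0.231 and 0.0892 FPKM in PPARγ/+_5d. It held at most 12 fragments in a library and entered the test only through libraries of 5d, so that its call as higher on 5d in both cell types was partly fixed by the filter. No fold is given because the PPARγ/+_0d libraries were at 0. The subunits of IFNAR and IFNGR were present throughout. Ifnar1 lay between 10.7 and 15.3 and Ifnar2 between 3.67 and 5.75 FPKM. Ifngr1 lay between 12.8 and 19.5 and Ifngr2 between 10.4 and 15.6 FPKM. Ifnlr1, a further receptor gene of the list, reached 0.1 FPKM in 1 library of 0d and 3 of 5d. It entered the test only through libraries of 5d. None of the 11 receptor and signalling genes tested was called in any of the comparisons below.

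The first question was which members changed from 0d to 5d in each cell type. The study called genes with DESeq2. A gene was called here by the same cut-offs in limma, an unadjusted p of at most 0.05 and a change of at least 2-fold. The fit was over 18023 genes on log2(FPKM + 0.1), so the calls are not those of the study. Of the 36 members 35 passed the filter of 0.1 FPKM in 3 libraries, and Mx1, with 0 to 7 fragments per library, did not. Mx1 is disrupted in most laboratory mouse strains. Mx2, Ifi44 and Ddx60 passed the filter only through libraries of 5d, so that for them a difference between the days was partly chosen by the filter.

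In WT cells 5 members rose, Ifit3, Gbp2, Xaf1, Mx2 and Dtx3l, and 2 fell, Rsad2 and Oas1a. These are 14.3% and 5.71% of the 35 tested, against 8.94% and 7.53% of all genes tested. In PPARγ/+ cells 3 rose, Ifit3, Gbp2 and Xaf1, and Oas1a fell. These are 8.57% and 2.86%, against 9.11% and 6.06% of all genes tested. With Mx2, Ifi44 and Ddx60 left out, 32 members remain. Of these, 4 rose and 2 fell in WT cells, and 3 rose and 1 fell in PPARγ/+ cells. The shares called were near the background, so the counts are not a result about the members. At an unadjusted p of at most 0.05, whatever the fold, 14 of the 35 differed in WT cells (12 positive and 2 negative), where 46.8% of all genes did (18.5% positive and 28.3% negative). In PPARγ/+ cells these were 19 (14 positive and 5 negative), against 54.4% of all genes (21.7% positive and 32.7% negative). The days did not overlap for 12 members higher and 2 lower on 5d in WT cells, or 34.3% and 5.71%, against 20.2% and 30.9% of all genes. For PPARγ/+ cells they were 13 and 5, or 37.1% and 14.3%, against 23.8% and 34.4%. The higher ones include Mx2 and Ifi44 in WT cells and Mx2, Ifi44 and Ddx60 in PPARγ/+ cells, which the filter partly chose. The median log2 change of the 35 was 0.39 in WT cells, where the median of all genes was -0.08, and 0.27 in PPARγ/+ cells, where it was -0.10. The change was above 0 for 29 and 28 of the 35, against 44.3% and 43.3% of all genes. Mx2, Ifi44 and Ddx60, which the filter partly chose, were above 0 in both cell types and are included in these medians and counts. Median-ratio scaling moved the median of all genes to 0.02 in both cell types and that of the members to 0.52 and 0.39. The members' median in WT cells was 0.19 with a pseudocount of 1. In PPARγ/+ cells it was 0.12 with a pseudocount of 1, 0.16 with array weights (24 of 35 above 0), 0.17 with quantile normalization and 0.17 without PPARγ/+_5d replicate 1 (23 of 35 above 0). It was 0.41 without replicate 3 of PPARγ/+_0d, 0.42 without replicate 3 of PPARγ/+_5d and 0.41 with a filter of 1 FPKM, which leaves 23 members.

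**Figure D2:**
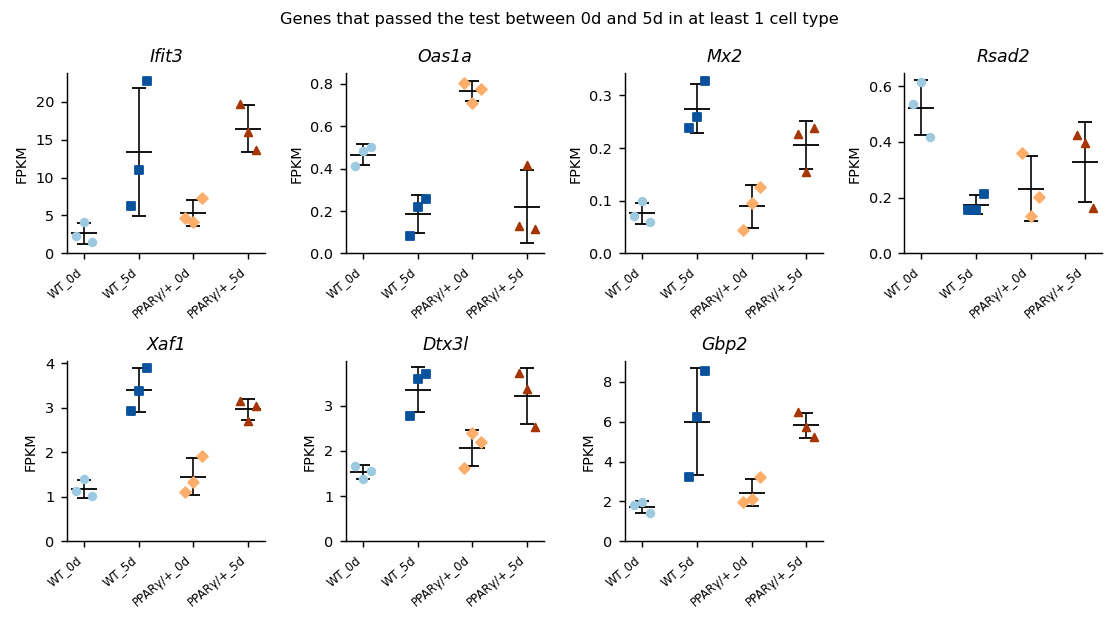
FPKM of the 7 called members by group, each point 1 library, replicates 1 to 3 from left to right, with the mean and SD (n = 3). Ifit3, Gbp2 and Xaf1 were higher in every library of 5d than in any library of 0d of the same cell type, and Oas1a was lower.

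Ifit3 encodes an IFIT protein, a family that binds viral RNA lacking the host's cap marks, and had the largest change of the members in WT cells (chromosome 19, 34583531 to 34588731, plus strand, GRCm38). In WT cells it stood at 2.25, 4.14 and 1.54 FPKM in replicates 1 to 3 on 0d and at 6.30, 11.0 and 22.7 on 5d. In PPARγ/+ cells it stood at 4.60, 4.15 and 7.32 on 0d and at 19.7, 15.9 and 13.7 on 5d. The days did not overlap in either cell type, and WT_5d replicate 3 was the highest of all 12 libraries. The log2 change was 2.21 ± 0.53 (SE, n = 3 against 3) in WT cells and 1.63 ± 0.23 in PPARγ/+ cells, with limma adjusted p-values of 0.0193 and 0.00142. Of the 100-base windows of its longest transcript, 31.7% were also found in Ifit3b, the adjacent paralog, so that the counting could split reads between both. Ifit3b itself changed by 2.13 in WT and 1.49 in PPARγ/+ cells (log2). The ISRE windows of Ifit3 are the pair printed above.

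The other genes of this role were not called. Ifit2 lay between 6.15 and 12.3 FPKM and Ifit1 between 0.806 and 3.18 FPKM, with log2 changes of 0.07 and 0.17 in WT and -0.18 and 0.41 in PPARγ/+ cells. Isg15, a ubiquitin-like protein that is coupled to other proteins, lay between 2.80 and 6.06 FPKM. Its days did not overlap in either cell type, with changes of 0.47 ± 0.17 and 0.74 ± 0.12 (log2), under the 2-fold threshold. Usp18, the protease that removes ISG15 and also restrains IFNAR signalling, lay between 0.313 and 1.19 FPKM and its days overlapped.

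Among the antiviral effectors the members moved in opposite directions. Xaf1, a partner and antagonist of the apoptosis inhibitor XIAP (chromosome 11, 72301629 to 72313733, plus strand), stood at 1.13, 1.40 and 1.01 FPKM on 0d and 2.93, 3.37 and 3.90 on 5d in WT cells. With PPARγ/+ cells the values were 1.12, 1.33 and 1.92 on 0d and 3.16, 2.71 and 3.04 on 5d. The days were apart in both cell types, and the change was 1.45 ± 0.18 in WT (adjusted p = 0.00162, limma) and 1.01 ± 0.20 in PPARγ/+ cells (adjusted p = 0.00547, limma). The value in PPARγ/+ cells sat at the 2-fold threshold. Leaving out replicate 1 or 2 of PPARγ/+_0d, or replicate 1 or 3 of PPARγ/+_5d, brought it to between 0.85 and 0.99, under the threshold. With a pseudocount of 1 it was 0.70.

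Mx2, a dynamin-like GTPase that blocks viral replication (chromosome 16, 97535308 to 97560900, plus strand), was low. It held 5, 9 and 5 fragments on 0d and 22, 18 and 27 on 5d in WT cells, or 0.0713, 0.0987 and 0.0598 against 0.239, 0.258 and 0.328 FPKM. In PPARγ/+ cells it held 4, 9 and 10 fragments on 0d and 17, 12 and 16 on 5d. No day overlapped the other, and the change was 1.09 ± 0.22 in WT (adjusted p = 0.0113, limma) and 0.71 ± 0.26 in PPARγ/+ cells, where it was under 2-fold. Because Mx2 passed the filter only through libraries of 5d, its separation of the days and its call were partly fixed by the filter. Without WT_5d replicate 3 the change in WT cells was 0.99, under the threshold, and with a pseudocount of 1 it was 0.24.

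Rsad2, which encodes viperin, an enzyme that makes a chain-terminating ribonucleotide (chromosome 12, 26442746 to 26456452, minus strand), fell in WT cells and was not called in PPARγ/+ cells. It stood at 0.536, 0.614 and 0.419 FPKM on 0d and 0.154, 0.156 and 0.213 on 5d in WT cells. With PPARγ/+ cells the values were 0.360, 0.133 and 0.201 on 0d and 0.423, 0.398 and 0.162 on 5d. The days did not overlap in WT cells and did in PPARγ/+ cells, with changes of -1.18 ± 0.23 (adjusted p = 0.00864, limma) and 0.36 ± 0.38. The libraries held 13 to 67 fragments each. With a pseudocount of 1 the change in WT cells was -0.37, under 2-fold.

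Oas1a, a 2′-5′ oligoadenylate synthetase that activates RNase L (chromosome 5, 120896256 to 120907521, minus strand), fell in both cell types. It stood at 0.410, 0.484 and 0.504 FPKM on 0d and 0.0833, 0.2199 and 0.256 on 5d in WT cells, from 15, 23 and 22 fragments against 4, 8 and 11. In PPARγ/+ cells it stood at 0.804, 0.712 and 0.778 on 0d and 0.128, 0.419 and 0.114 on 5d, from 37, 35 and 32 fragments against 5, 17 and 4. Every library of 5d was below every library of 0d of the same cell type. The change was -1.04 ± 0.30 in WT (adjusted p = 0.0388, limma) and -1.56 ± 0.36 in PPARγ/+ cells (adjusted p = 0.0112, limma). In WT cells it was under 2-fold with median-ratio scaling (-0.95), array weights (-0.89), without WT_0d replicate 3 (-0.99) and without WT_5d replicate 1 (-0.74). With a pseudocount of 1 it was -0.31 in WT and -0.54 in PPARγ/+ cells, under 2-fold in both. Of its 100-base windows 40.9% were shared with the paralog Oas1g.

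The remaining effectors were not called. Ifitm3 had changes of 0.38 ± 0.20 in WT and 0.86 ± 0.11 in PPARγ/+ cells (log2), the second with no overlap between the days (adjusted p = 0.00083, limma) and under 2-fold. Bst2 had changes of 0.26 ± 0.20 and -0.63 ± 0.11, with the libraries of PPARγ/+_5d (14.7 to 19.4 FPKM) below those of PPARγ/+_0d (25.2 to 28.6 FPKM). Ifi35 lay between 6.75 and 8.95 FPKM in all libraries. Oasl2, Cmpk2, a mitochondrial nucleotide kinase whose gene neighbours Rsad2, and Ifi44 had mean levels under 1 FPKM, and their changes ran from -0.66 to 0.66 in WT and from 0.11 to 0.58 in PPARγ/+ cells. Ifi44 showed no overlap of the days in either cell type, from 4 to 30 fragments per library.

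**Figure D3:**
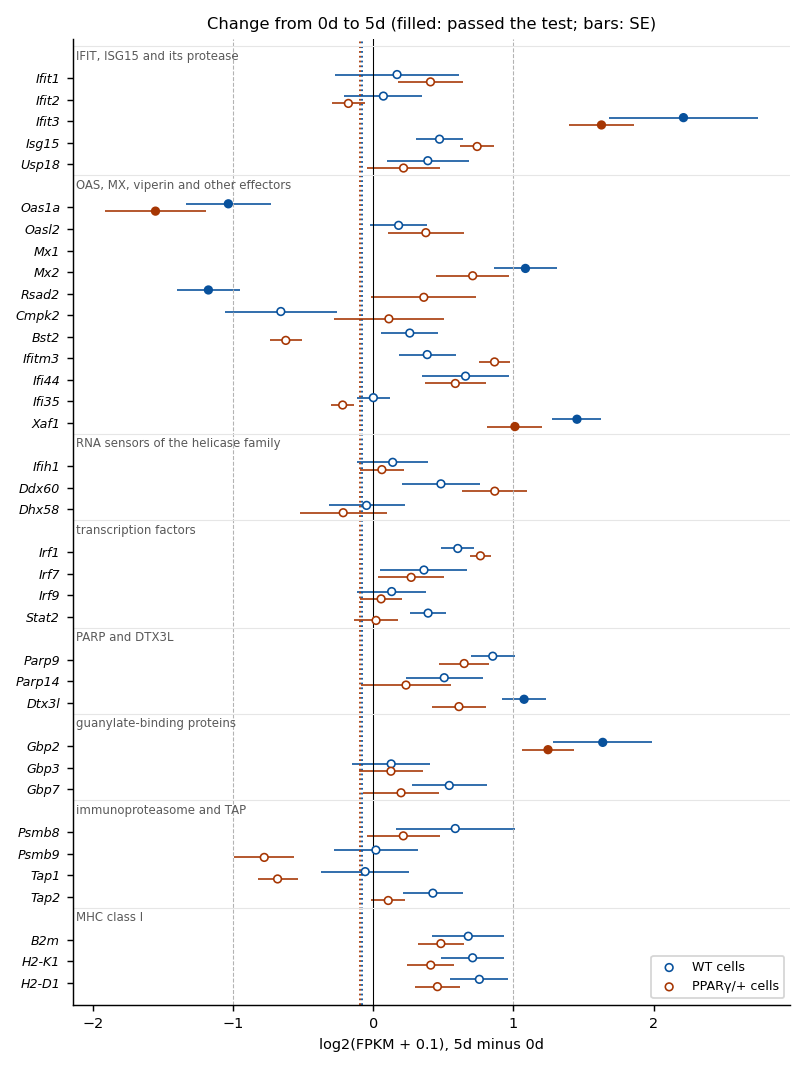
Log2 change from 0d to 5d of the 35 tested members in WT and PPARγ/+ cells, with SE (n = 3 against 3) and filled points for called genes. Dashed lines mark 2-fold and dotted lines the median of all genes, -0.08 in WT and -0.10 in PPARγ/+ cells, and most points lie to the right of the dotted lines.

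None of the RNA sensors of the helicase family was called. Ifih1, which encodes the long double-stranded RNA sensor MDA5, lay between 0.518 and 0.998 FPKM, and Dhx58, its regulator LGP2, between 0.263 and 0.621. Ddx60 held 3 to 23 fragments per library, and its change was 0.87 ± 0.23 in PPARγ/+ cells with no overlap between the days, under 2-fold.

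The transcription factors of the response were not called either, although the days did not overlap for Irf1. Irf1, a transcriptional activator that interferon gamma induces, lay between 6.84 and 7.47 FPKM in WT_0d and 9.20 and 11.98 in WT_5d, and between 5.60 and 6.19 in PPARγ/+_0d and 9.27 and 10.7 in PPARγ/+_5d. Its changes were 0.60 ± 0.12 and 0.76 ± 0.08 (log2, adjusted p = 0.00909 and 0.000359, limma), under 2-fold. Stat2 and Irf9, which bind the ISRE in a complex, lay between 5.89 and 9.89 and between 2.07 and 3.84 FPKM. Irf7, the amplifier of type I interferon production, lay between 0.481 and 1.28 FPKM, and the days overlapped in both cell types for Irf7 and Irf9. A stretch of 123 exonic bases of Irf9 is shared with Rnf31 on the same strand.

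Dtx3l, a ubiquitin ligase, and Parp9, a member of the ADP-ribosyltransferase family, form a complex and lie head to head. Dtx3l (chromosome 16, 35926511 to 35939151, minus strand) stood at 1.67, 1.37 and 1.55 FPKM on 0d and 2.78, 3.59 and 3.70 on 5d in WT cells. The PPARγ/+ libraries held 1.61, 2.39 and 2.20 on 0d and 3.72, 3.36 and 2.53 on 5d. The days did not overlap in either cell type, and the change was 1.08 ± 0.16 in WT (adjusted p = 0.00329, limma) and 0.61 ± 0.20 in PPARγ/+ cells, where it was under 2-fold. With a pseudocount of 1 the change of Dtx3l in WT cells was 0.78, under 2-fold. Parp9 had changes of 0.85 ± 0.16 and 0.65 ± 0.18, also without overlap and under 2-fold. The exons of both genes share 458 bases on opposite strands, and the library kit marks no strand, so that the reads of this stretch cannot be assigned to either. Parp14 lay between 0.546 and 1.35 FPKM and its days overlapped.

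Of the guanylate-binding proteins, GTPases that attack vacuoles of intracellular pathogens, Gbp2 was called and Gbp3 and Gbp7 were not. Gbp2 (chromosome 3, 142620602 to 142638008, plus strand) stood at 1.84, 1.95 and 1.41 FPKM on 0d and 3.21, 6.22 and 8.55 on 5d in WT cells. In PPARγ/+ cells it stood at 1.99, 2.12 and 3.22 on 0d and 6.48, 5.75 and 5.24 on 5d. The days did not overlap in either cell type, and the lowest WT_5d library, replicate 1, was just below the highest PPARγ/+_0d library. The change was 1.64 ± 0.35 in WT (adjusted p = 0.013, limma) and 1.25 ± 0.19 in PPARγ/+ cells (adjusted p = 0.00191, limma). Gbp3 lay between 0.734 and 1.63 and Gbp7 between 0.769 and 2.31 FPKM. All 3 promoters hold an ISRE match, as printed above, the called gene and the others alike.

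The immunoproteasome and the peptide transporter were not called. Psmb8, the catalytic subunit that takes the place of PSMB5, lay between 0.158 and 0.663 FPKM, or 0.48% to 3.29% of the level of Psmb5 in the same library. Psmb9, which takes the place of PSMB6, lay between 0.204 and 0.713 FPKM, or 0.287% to 1.04% of Psmb6. Psmb10, which is not a member, lay at 28.9% to 71.5% of Psmb7, the subunit it displaces. On the scale of FPKM the first 2 of these subunits were thus a small share of their constitutive counterparts in every library. Tap1 and Tap2, the subunits of the transporter that carries peptides into the endoplasmic reticulum, lay between 1.05 and 3.88 and between 4.28 and 9.27 FPKM. In PPARγ/+ cells Psmb9 and Tap1 were lower in every library of 5d than in any of 0d, by -0.78 ± 0.22 and -0.68 ± 0.14 (log2, adjusted p = 0.0231 and 0.00739, limma), under 2-fold. In WT cells both overlapped, at 0.02 ± 0.30 and -0.06 ± 0.32. Tap1 and Psmb9 share 212 exonic bases on opposite strands.

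The MHC class I genes had changes of the same sign and similar size, all under 2-fold. In WT cells these were 0.68 ± 0.26 for B2m, 0.71 ± 0.23 for H2-K1 and 0.76 ± 0.21 for H2-D1 (log2, adjusted p = 0.0835, 0.0512 and 0.0302, limma). In PPARγ/+ cells they were 0.48 ± 0.16, 0.41 ± 0.17 and 0.46 ± 0.16 (adjusted p = 0.0481, 0.0877 and 0.0525, limma). No overlap between the days was seen for H2-D1 in either cell type, for H2-K1 in WT cells and for B2m in PPARγ/+ cells. Summed over the 3 genes, the level was 352.4 to 589.2 FPKM in WT_0d, 576.7 to 929.9 in WT_5d, 435.6 to 670.5 in PPARγ/+_0d and 675.2 to 786.4 in PPARγ/+_5d.

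The members varied together between the libraries of 1 group. WT_5d replicate 1 was the lowest of its group for 33 of the 35 tested members (94.3%, against 43.6% of all genes tested), and WT_5d replicate 3 was the highest for 26 (74.3%, against 46.5%). The median distance from the group mean was -0.35, 0.06 and 0.27 (log2) in WT_5d replicates 1, 2 and 3. Replicate 3 stood at 3.09 times the mean of the other two for Cmpk2, 2.97 for Ifi44 and 2.62 for Ifit3. PPARγ/+_0d replicate 3 and PPARγ/+_5d replicate 1 were the highest of their groups for 24 and 26 members, against 30.8% and 36.2% of all genes. The order of the WT_5d libraries was the reverse of that of their summed myoblast and myotube markers, 4236, 3248 and 961.9 FPKM. The part of the markers in these differences was not tested. The summed level of the 8 leukocyte markers, most of it Cd68, was 2.065, 2.55 and 3.519 FPKM in WT_5d replicates 1, 2 and 3. This is the same order as that of the members. Ptprc was at 0 or 0.00214 FPKM in the 3 libraries, and the part of the leukocyte markers was not tested either. Without WT_5d replicate 3 the calls in WT cells numbered 7, with Mx2 lost and Cmpk2 added at -1.04, and the median of the 35 changes was 0.28. Without replicate 1 they numbered 6, with Oas1a lost, and the median was 0.60.

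**Figure D4:**
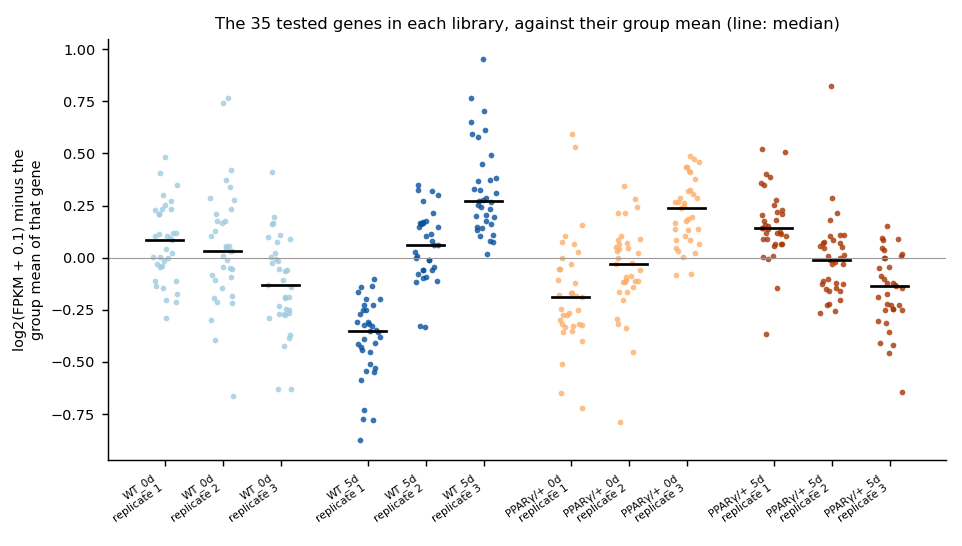
Log2(FPKM + 0.1) of each of the 35 tested members minus its group mean, by library, with the median as a line. The medians of WT_5d replicates 1, 2 and 3 were -0.35, 0.06 and 0.27, the widest spread of the 4 groups.

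The second question was whether PPARγ/+ cells differed from WT cells on the same day, called at a Benjamini-Hochberg adjusted p of at most 0.05 and at least 2-fold. On 0d none of the 35 members was called by limma, against 0.361% higher and 1.23% lower of all genes tested, or 1.59% in either direction. At an unadjusted p of at most 0.05 there were 12, of which 9 were higher and 3 lower in PPARγ/+ cells, or 25.7% and 8.57%, against 11% and 10.7% of all genes. The median difference was 0.26 (log2, PPARγ/+ minus WT), against 0.02 over all genes, and 29 of 35 were above 0, against 53.4% of all genes. The median was 0.42 without PPARγ/+_0d replicate 1 and 0.16 with a pseudocount of 1. The groups did not overlap for 11 higher members (31.4%, against 13.7% of all genes) and 3 lower ones (8.57%, against 13.1%).

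The peptide transporter and the immunoproteasome had the highest median of the roles on 0d, 0.72 over 4 genes. Tap1 lay between 1.36 and 2.36 FPKM in WT_0d and between 2.72 and 3.88 in PPARγ/+_0d, a difference of 0.93 ± 0.25 (adjusted p = 0.102, limma). Tap2 lay between 4.28 and 5.54 and between 6.71 and 9.27 FPKM, a difference of 0.68 ± 0.16 (adjusted p = 0.0775, limma). Psmb9 differed by 0.76 ± 0.25, also without overlap (adjusted p = 0.159, limma). These differences did not pass the adjusted threshold. Bst2 did, at 0.74 ± 0.12 (adjusted p = 0.0338, limma), with 14.2 to 19.1 FPKM in WT_0d and 25.2 to 28.6 in PPARγ/+_0d, and was under 2-fold. Ifit3 had the widest difference, 1.06 ± 0.39 (adjusted p = 0.193, limma), with 1.54 to 4.14 FPKM in WT_0d and 4.15 to 7.32 in PPARγ/+_0d. Lower in PPARγ/+_0d without overlap were Ifitm3 by -0.56 ± 0.13, Irf1 by -0.28 ± 0.07 and Rsad2 by -0.96 ± 0.30, with adjusted p-values of 0.0828, 0.0992 and 0.141 (limma). Summed myoblast and myotube markers on 0d were 134.8 to 307 FPKM in WT and 61.9 to 97.6 in PPARγ/+ cells. Of these sums Des alone held 107.8 to 180.1 and 45.45 to 62.9 FPKM. Summed adipocyte markers were 11.9 to 16.4 and 20.4 to 26.1 FPKM, in WT cells mostly Lpl and Cebpa. Adipoq and Fabp4 were at most 0.0313 and 0.0481 FPKM in WT_0d and at least 1.055 and 1.589 in PPARγ/+_0d. The part of these markers in the differences was not tested.

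On 5d none of the 35 members was called by limma, against 0.0943% higher and 0.061% lower of all genes tested. At an unadjusted p of at most 0.05 there was 1, Stat2 at -0.26 ± 0.10, against 6.56% higher and 6.1% lower of all genes (12.7% in all). The median difference was 0.09, against 0.02 over all genes, and 21 of 35 (60%) were above 0, against 54.5% of all genes. The median was -0.13 without WT_5d replicate 1 and 0.28 without replicate 3, so that its sign turned on 1 library. The differences ran from -0.30 to 0.58 with SEs of 0.08 to 0.45. The groups overlapped for 33 of the 35, and 10.2% of all genes were higher and 8.31% lower without overlap. The exceptions were Mx2, lower in PPARγ/+_5d (0.154 to 0.238 against 0.239 to 0.328 FPKM), and Tap2, higher (8.598 to 8.88 against 4.95 to 8.34 FPKM). A p that misses the threshold at this spread does not show that the cell types had the same level.

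**Figure D5:**
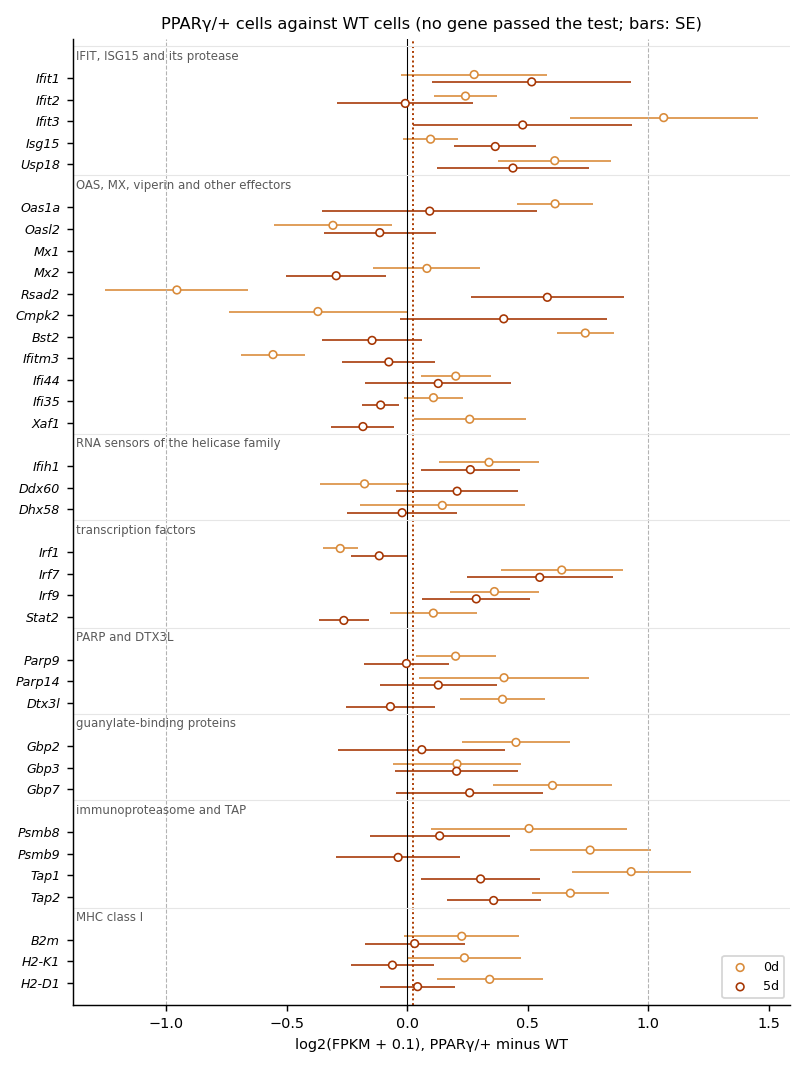
Log2 difference between PPARγ/+ and WT cells of the 35 tested members on 0d and 5d, with SE (n = 3 against 3). Dashed lines mark 2-fold and dotted lines the median of all genes, 0.02 on both days, and no gene was called on either day.

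The last question was whether both cell types changed alike over the 5 days, tested as an interaction over all 12 libraries at an adjusted p of at most 0.05. None of the 35 members was called by limma, against 0.583% of all genes tested with a positive and 0.178% with a negative coefficient (0.76% in all). At an unadjusted p of at most 0.05 there were 2, 1 positive and 1 negative, against 6.82% and 5.18% of all genes (12% in all). A positive coefficient means a higher log2 change in PPARγ/+ than in WT cells, and it was above 0 for 8 of the 35 (22.9%), against 48.8% of all genes. Its median was -0.22, and -0.39 without WT_5d replicate 1 and -0.06 without replicate 3, where that of all genes was -0.01 with all 12 libraries. The coefficient of Rsad2 was 1.54 ± 0.45 (adjusted p = 0.181, limma), from changes of -1.18 in WT and 0.36 in PPARγ/+ cells. That of Bst2 was -0.89 ± 0.25 (adjusted p = 0.16, limma), and without WT_5d replicate 1 it was -1.09 and passed (adjusted p = 0.0331, limma). The coefficients of Ifit3, Gbp2 and Xaf1 were -0.59 ± 0.62, -0.39 ± 0.43 and -0.44 ± 0.27 (adjusted p = 0.772, 0.779 and 0.574, limma), so that their smaller changes in PPARγ/+ cells did not pass the test of the difference. The coefficient of Dtx3l, called in WT cells alone, was -0.47 ± 0.26 (adjusted p = 0.532, limma), and that of Mx2 was -0.38 ± 0.34.

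Other genes of the pathway, in lists that hold no member, were tested alike. Of 116 tested, 22 rose (19%) and 4 fell (3.45%) in WT cells, and 16 rose (13.8%) and 2 fell (1.72%) in PPARγ/+ cells, against the 8.94%, 7.53%, 9.11% and 6.06% of all genes given above. None was called between the cell types on either day or in the interaction. Of those that rose, 5 in each cell type (Ifng, Ifit1bl1, Gbp4, Gbp8 and Gbp10) entered the test only through libraries of 5d. Likewise Oasl1, among those that fell in WT cells, entered only through 0d. For the 105 tested that did not enter through 1 day alone, the filter did not bear on the call in this way. Of these 105, 17 rose and 3 fell in WT cells, and 11 rose and 2 fell in PPARγ/+ cells. The share of the 11 was near the 9.11% of all genes. Of the interferon-inducible GTPases other than the members, 8 of 12 tested rose in WT and 5 in PPARγ/+ cells. In each case 3 of these, Gbp4, Gbp8 and Gbp10, had entered only through libraries of 5d. Among the 8 tested that did not enter through 1 day alone, 5 rose in WT and 2 in PPARγ/+ cells. The medians of the list were 1.18 and 0.96 (log2). They include Gbp4, Gbp8 and Gbp10, so the filter partly fixed them. Gbp9 stood at 0.299, 0.874 and 0.334 FPKM in WT_0d and 0.987, 2.004 and 2.94 in WT_5d, and at 0.594, 0.363 and 0.788 in PPARγ/+_0d and 2.72, 2.57 and 2.11 in PPARγ/+_5d. Its change was 1.79 ± 0.49 and 1.96 ± 0.25 (adjusted p = 0.0315 and 0.000978, limma). H2-T23, the non-classical class I molecule Qa-1 that NK cells read, rose by 1.62 ± 0.27 and 1.67 ± 0.09 (adjusted p = 0.00509 and 3.2e-05, limma), from 7.42 to 11.4 FPKM in WT_0d to 21.97 to 42.3 in WT_5d. Rtp4, a regulator of chemoreceptor traffic that interferon induces, rose by 1.47 ± 0.17 in WT and 1.55 ± 0.23 in PPARγ/+ cells, and H2-T24, another non-classical class I gene, rose by 1.53 ± 0.26 in PPARγ/+ cells. Slfn9, of the Schlafen family, changed by -1.68 ± 0.18 in WT and -1.45 ± 0.20 in PPARγ/+ cells and was called lower in both.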

How the data were processed

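The 36 genes and all gene lists were chosen with earlier results of these data known. Per the methods, Trim Galore trimming, STAR alignment to GRCm38 and HTSeq counting were run by the authors, and the labels' processing notes name mm9 and STAR, so the build of the alignment is unsure and positions here are those of the GRCm38 annotation. The deposited values used are the authors' FPKM of 46983 genes in 12 libraries. A second deposited table holds the same values as log2(FPKM + 1), different by at most 5.3e-14, and was not analysed further. Fragments were recovered as FPKM times exonic length times mapped fragments, estimated from the steps of low values. They were whole within 0.02 for 21320 of 27138 genes with the annotated length and for 5810 with an inferred length. The depth was 15537538 to 21991381 fragments on genes per library, and counts of a few fragments carry counting error.

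limma 3.58.1 in R 4.3.3 (trend, empirical Bayes) was fitted to log2(FPKM + 0.1) of the 18023 genes with at least 0.1 FPKM in at least 3 libraries, so that the changes of low genes are understated. Comparisons between 2 groups used their own 6 libraries. Thresholds stand with each comparison. The study calls its replicates biological, no source used here says that they were separate cultures, and the p-values measure the spread between libraries. Values in every library are given for the members called in any comparison, other members by range, and other pathway genes by the counts of each list, naming up to 4 per comparison with the largest change among called genes of at least 1 FPKM. Ifng, the receptors, Psmb10 and the genes that passed the filter through 1 day were named after their values were seen. A further gene is not reported here. The H2-L symbol of a list was not matched. The alternatives were other pseudocounts, filters, scalings, array weights, a replicate block, a joint fit, the other p-value rule and leaving out each library. The script was tested on simulated data. Windows of 100 bases were compared between GENCODE M21 transcripts. Tables and plots used Python 3.11.15, numpy 2.4.6, pandas 2.3.3 and matplotlib 3.10.9.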

Additional observations from a re-analysis of the deposited data

How the results depend on the processing

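Against 7 members called from 0d to 5d in WT cells, 3 were called with a pseudocount of 1 and 4 with a filter of 1 FPKM, which leaves 23 members. Against 4 in PPARγ/+ cells, 2 were called with a pseudocount of 1 and 7 with one of 0.01, which adds Ddx60, Ifi44 and Mx2. On 0d, where no member was called between the cell types, array weights called 1 (Tap1, 1.08) and the unadjusted p called 1 (Ifit3). Array weights called 95 higher and 254 lower of all 18023 genes, and the unadjusted p called 226 and 435. The main fit called 65 and 222. In the interaction, also with none, array weights called 6 (Rsad2 and Ifitm3 positive, Bst2, Psmb9, Stat2 and Tap1 negative). The same setting called 1084 positive and 986 negative of all 18023 genes, against 105 and 32 in the main fit. The 6 are therefore not read as a result about the members. Leaving out each library in turn gave 6 to 7 calls in WT and 3 to 4 in PPARγ/+ cells, 0 between the cell types on either day, and 0 to 1 in the interaction. Over all settings, 155 values of called genes kept their call, 17 lost it and 0 reversed, and Ifit3 and Gbp2 kept theirs in both cell types and Xaf1 in WT cells. The causes were not tested. Same-numbered replicates correlated between -0.068 and 0.083 in their deviations from the group means, and differently numbered ones between -0.122 and 0.102. From 0d to 5d in PPARγ/+ cells, same-numbered ones lay between 0.034 and 0.083 and the others between -0.058 and 0.012. These values cannot decide whether the numbers pair samples. With the replicate block the members called numbered 7 and 4 from 0d to 5d and 0 in the other comparisons, as without it. Of all genes, the block called 0 between the cell types on 0d, against 65 higher and 222 lower without it. The lowest members, at a few fragments per library, are limited by depth.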

Other observations

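The constitutive proteasome genes and MHC class II were also measured. Psmb5, Psmb6 and Psmb7, the catalytic subunits that the immunoproteasome displaces, had a median change from 0d to 5d of -0.53 in WT and -0.75 in PPARγ/+ cells (log2, 3 genes), none of them called. Their summed level was 115.4 to 145.3 FPKM in WT_0d, 77.1 to 92.0 in WT_5d, 109.9 to 141.5 in PPARγ/+_0d and 66.7 to 75.6 in PPARγ/+_5d. Of 8 MHC class II genes 2 entered the test and none was called, and Ciita, the master regulator of class II, was at most 0.0395 FPKM. The class II chain genes H2-Aa and H2-Ab1 were at 0 in all 12 libraries, and H2-Eb1 was at most 0.0365 FPKM. The sums that follow were therefore held by other genes of the list and do not show these chains. On 0d the summed level of the 8 was 2.348 to 2.831 FPKM in WT and 3.937 to 6.249 in PPARγ/+ cells. On 5d it was 3.035 to 4.817 and 5.469 to 5.907 FPKM. The sums did not overlap between the cell types on either day, and this was not tested. Of all genes tested, 13.7% were higher and 13.1% lower without overlap on 0d, and 10.2% and 8.31% on 5d. Of the 18 other MHC class I and peptide loading genes tested, 1 rose in WT and 2 in PPARγ/+ cells. Of 47 other interferon-stimulated genes, 10 rose and 3 fell in WT cells and 7 rose and 1 fell in PPARγ/+ cells. Among the 43 that did not enter through 1 day alone, 9 rose and 2 fell in WT cells. In PPARγ/+ cells 6 of the 43 rose and 1 fell. Of 16 sensors, adaptors and kinases, 1 rose and 1 fell in WT cells and 1 fell in PPARγ/+ cells, and of 6 negative regulators 1 rose in each. Over all genes tested, 8.94% rose and 7.53% fell in WT cells, and 9.11% rose and 6.06% fell in PPARγ/+ cells.

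Among the 29 members with a promoter in the RefSeq table, the 14 with ISRE letters had a median change from 0d to 5d of 0.39 in WT and 0.38 in PPARγ/+ cells, and the 15 without them had 0.36 and 0.27. Genes with a match were called in both directions, Ifit3 and Gbp2 upward and Oas1a and Rsad2 downward in WT cells. Of the 15 without a match, 2 rose and 0 fell in WT cells. In PPARγ/+ cells 2 of the 14 with a match rose and 1 fell, and of the 15 without, 1 rose and 0 fell. Over all genes tested, 8.94% rose and 7.53% fell in WT cells, and 9.11% and 6.06% in PPARγ/+ cells. These are descriptions of lists, with no test.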
